A study of Mus musculus with 24 samples.

Results

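Ido1 and 9 genes named with it were followed across mammary glands of 2 mouse strains after low-dose ionizing radiation (LDIR): Irf1, the guanylate-binding proteins Gbp2, Gbp3 and Gbp6, and the immunity-related GTPases Iigp1, Igtp, Irgm1, Irgm2 and Tgtp1. A probe belonged to the set where its gene name on the array was exactly one of these 10 symbols, which gave 10 of the 34797 gene names and 14 of the 55681 probes on the array. Irf1, Gbp6, Iigp1 and Irgm1 have 2 probes each and the other 6 genes have 1. The 10 genes were chosen on the LDIR differences measured in BALB/c mice at 2 weeks, where Ido1 stood out, so their values in that comparison are given as a description with no test.

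The tissue was the mammary gland of female mice exposed to 10 cGy of whole-body X-rays, or sham handled, at 8 to 9 weeks of age. BALB/c glands were taken 2, 4 and 8 weeks later and SPRET/EiJ glands 4 weeks later, which gave 8 groups of 3 arrays, marked A, B and C, and 24 arrays in all. Both strains came from the Jackson Laboratory as inbred mice, BALB/c as the more and SPRET/EiJ, a strain derived from Mus spretus, as the less susceptible to radiation-induced mammary cancer. No group carried an engineered allele or any agent other than the exposure. RNA of the whole gland was measured, so fewer cells of a type and less RNA per cell cannot be told apart. Every level below is a log2 ratio of a probe's signal to the 75th percentile of its own array, so a level of 0 equals that percentile, and every difference is LDIR minus sham or BALB/c minus SPRET/EiJ on the log2 scale. Levels of different probes were not compared with each other, since probes differ in how brightly they bind.

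Interferon-gamma, released mainly by natural killer cells and T lymphocytes, binds a receptor on the cell surface and turns on genes that carry a gamma-activated site (GAS). An early target is Irf1, itself a transcription factor, which then acts on interferon-stimulated response elements (ISRE) in later genes. Guanylate-binding proteins and immunity-related GTPases are among the most strongly induced products and attack the vacuoles in which intracellular microbes live. Irgm1 and Irgm2 belong to a regulatory class of these GTPases, as does Igtp, and keep the effector GTPases, such as Iigp1 and Tgtp1, inactive on the membranes of the cell itself. Ido1 is an interferon-gamma-induced enzyme of another kind: it opens the kynurenine pathway by cleaving tryptophan, and it is known for restraining T lymphocytes.

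The promoters of the members were read for both elements, because the order of induction described above rests on them. RefSeq entries of 300 bases, 250 before and 50 after the annotated start on the build GRCm38.p6, were at hand for 7 of the 10 members in 9 entries, and those of Ido1, Gbp6 and Iigp1 are named only. GAS was searched as TTCNNNGAA, which is its own reverse complement, and ISRE as GAAANNGAAA on both strands. The 6 promoters shown carry both elements or 1 of them, with capitals marking the matches: Irf1 at chr11:53769764-53770063 (plus strand), Gbp2 at chr3:142620413-142620712 (plus), Irgm1 at chr11:48871371-48871670 (minus), Igtp at chr11:58199306-58199605 (plus), Irgm2 at chr11:58214727-58215026 (plus) and Tgtp1 at chr11:48992197-48992496 (minus).
Irf1: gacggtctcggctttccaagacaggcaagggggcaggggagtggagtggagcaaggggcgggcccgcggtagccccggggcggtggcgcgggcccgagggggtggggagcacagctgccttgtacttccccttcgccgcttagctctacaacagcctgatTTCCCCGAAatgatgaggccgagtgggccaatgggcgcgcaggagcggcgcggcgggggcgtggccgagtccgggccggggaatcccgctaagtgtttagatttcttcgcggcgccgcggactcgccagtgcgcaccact
Gbp2: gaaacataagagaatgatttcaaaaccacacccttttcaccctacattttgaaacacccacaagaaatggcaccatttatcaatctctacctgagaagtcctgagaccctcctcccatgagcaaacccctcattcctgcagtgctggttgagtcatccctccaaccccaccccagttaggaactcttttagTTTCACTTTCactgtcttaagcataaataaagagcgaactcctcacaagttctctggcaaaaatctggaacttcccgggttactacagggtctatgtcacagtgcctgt
Irgm1: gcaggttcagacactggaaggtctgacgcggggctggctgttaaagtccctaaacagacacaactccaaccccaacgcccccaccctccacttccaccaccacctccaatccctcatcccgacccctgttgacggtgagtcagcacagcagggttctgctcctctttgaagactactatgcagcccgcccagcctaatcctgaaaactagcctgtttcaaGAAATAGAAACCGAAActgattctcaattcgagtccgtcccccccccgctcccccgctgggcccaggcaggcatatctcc
Igtp: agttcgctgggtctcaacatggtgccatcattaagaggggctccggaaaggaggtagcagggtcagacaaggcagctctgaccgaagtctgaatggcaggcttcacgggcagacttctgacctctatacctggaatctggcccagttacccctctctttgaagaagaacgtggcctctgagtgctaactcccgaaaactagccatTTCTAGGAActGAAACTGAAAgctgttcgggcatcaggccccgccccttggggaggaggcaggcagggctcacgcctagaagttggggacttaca
Irgm2: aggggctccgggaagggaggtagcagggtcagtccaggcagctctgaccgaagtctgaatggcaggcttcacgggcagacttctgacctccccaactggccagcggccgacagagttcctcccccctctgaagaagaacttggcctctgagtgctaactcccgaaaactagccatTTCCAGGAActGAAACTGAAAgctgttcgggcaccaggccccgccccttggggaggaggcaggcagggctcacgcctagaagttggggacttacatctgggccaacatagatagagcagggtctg
Tgtp1: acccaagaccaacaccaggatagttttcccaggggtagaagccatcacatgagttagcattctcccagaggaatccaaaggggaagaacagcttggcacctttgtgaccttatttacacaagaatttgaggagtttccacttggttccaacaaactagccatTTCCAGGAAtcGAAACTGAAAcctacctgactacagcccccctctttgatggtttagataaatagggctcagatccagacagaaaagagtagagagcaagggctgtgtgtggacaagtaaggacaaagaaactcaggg

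GAS matched in 4 of the 7 genes (Irf1, Igtp, Irgm2 and Tgtp1) and ISRE in 6 (Gbp2, Gbp3, Igtp, Irgm1, Irgm2 and Tgtp1). By entry these were 4 and 6 of 9, since the other entries of Irf1 and Gbp3 held neither. Among all 32851 promoters of this length in the same table, 8.3% held the GAS letters, 3.44% the ISRE letters and 11.3% either. The Irf1 promoter held GAS alone, from -90 to -82 before the start, and the Gbp2 promoter held ISRE alone, from -59 to -50. Igtp, Irgm2 and Tgtp1 carried GAS and ISRE with 2 bases between them, at -45 to -37 and -34 to -25 in Igtp, -75 to -67 and -64 to -55 in Irgm2, and -88 to -80 and -77 to -68 in Tgtp1. The Irgm1 promoter held 2 ISRE matches that overlap, from -30 to -21 and from -24 to -15, and Gbp3 held a like pair from -45 to -36 and from -39 to -30. Igtp and Irgm2, neighbours on chromosome 11, shared an identical stretch of 61 bases, and Irgm2 and Tgtp1 one of 20 bases. A match says only that these letters are present, and no binding was measured here.

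Each probe is a 60-base oligonucleotide whose position the array's annotation gives on the build mm9. The probe of Ido1 lies at chr8:25694613-25694672, those of Gbp2 and Gbp3 at chr3:142300719-142300778 and chr3:142236032-142236091, and the brightest probe of Gbp6 at chr5:105700056-105700115. On chromosome 11 lie the brightest probe of Irf1 (53590746 to 53590805), that of Igtp (58020927 to 58020986), that of Irgm2 (58036093 to 58036152), the brightest of Irgm1 (48679069 to 48679128) and that of Tgtp1 (48799587 to 48799646). Igtp was spotted 10 times on each array, and its spots on an array varied with an SD of 0.0214 to 0.0778, against an SD of 0.76 between arrays of 1 group. The 2 probes of a gene deviated alike for Irgm1 (r = 0.902 over 18 BALB/c arrays) and Iigp1 (0.89) and less so for Irf1 (0.378) and Gbp6 (0.338). The second probe of Irf1 was well above background on 2 of 24 arrays, and Ido1 on 22.

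Between 57.1% and 72.6% of probes lay well above background per array, and markers of mammary epithelium (13 of 13) and of white adipocytes (9 of 9) did so on every array. The 3 arrays that stood apart were BALB/c 8-week sham A, BALB/c 8-week LDIR B and SPRET/EiJ LDIR A, which were rich in lymphocyte genes. The summed signal of 11 T lymphocyte genes, in multiples of the array's 75th percentile, was 180.3 to 243.1 on these 3 and 22.03 to 47.52 on the other 21. The ranges were 91.05 to 111.9 against 2.49 to 22.9 for 8 B lymphocyte genes, and 11.24 to 204.5 against 0.5119 to 1.986 for 5 genes of lymph node stroma. Values without them are given for some members in the comparisons that use these arrays and for the correlations, while counts and genes of the lists are given with all arrays. SPRET/EiJ LDIR C, with the lowest share of probes above background, was kept.

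Ido1 varied more between arrays than any other member. In BALB/c at 2 weeks its levels were -3.73, -2.96 and -2.85 on the sham arrays A, B and C and 2.03, -0.73 and -2.69 on the LDIR arrays. At 4 weeks they were -5.99, -1.36 and -2.67 after sham and -0.89, -2.68 and 3.49 after LDIR. At 8 weeks they were 1.89, -2.61 and -7.20 after sham and -2.42, -2.22 and -1.33 after LDIR. The level exceeded 0 on 3 of 24 arrays, an LDIR array at 2 weeks, an LDIR array at 4 weeks and a sham array at 8 weeks, and 2 sham arrays, at -5.99 and -7.20, were not well above background. In SPRET/EiJ the levels lay close together, at -4.46, -4.08 and -3.50 after sham and -3.01, -3.83 and -3.40 after LDIR.

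The SD of Ido1 between arrays of 1 group, pooled over the 8 groups, was 2.32 on the log2 scale, and its range over the 24 arrays was 10.69. The 2 sham arrays on which Ido1 was not well above background widen both values. For scale, the median SD over 29318 probes detected on all 24 arrays, of which Ido1 is not one, was 0.31. Without the 3 arrays rich in lymphocyte genes the SD of Ido1 was 2.06. The other members had SDs from 0.25 (Gbp2) to 0.76 (Igtp). Leaving out the 3 arrays lowered the SD of Irf1 from 0.53 to 0.25, of Irgm1 from 0.54 to 0.24, of Tgtp1 from 0.54 to 0.31 and of Igtp from 0.76 to 0.45, while Gbp2 went from 0.25 to 0.27 and Gbp6 from 0.59 to 0.63.

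**Figure D1:**
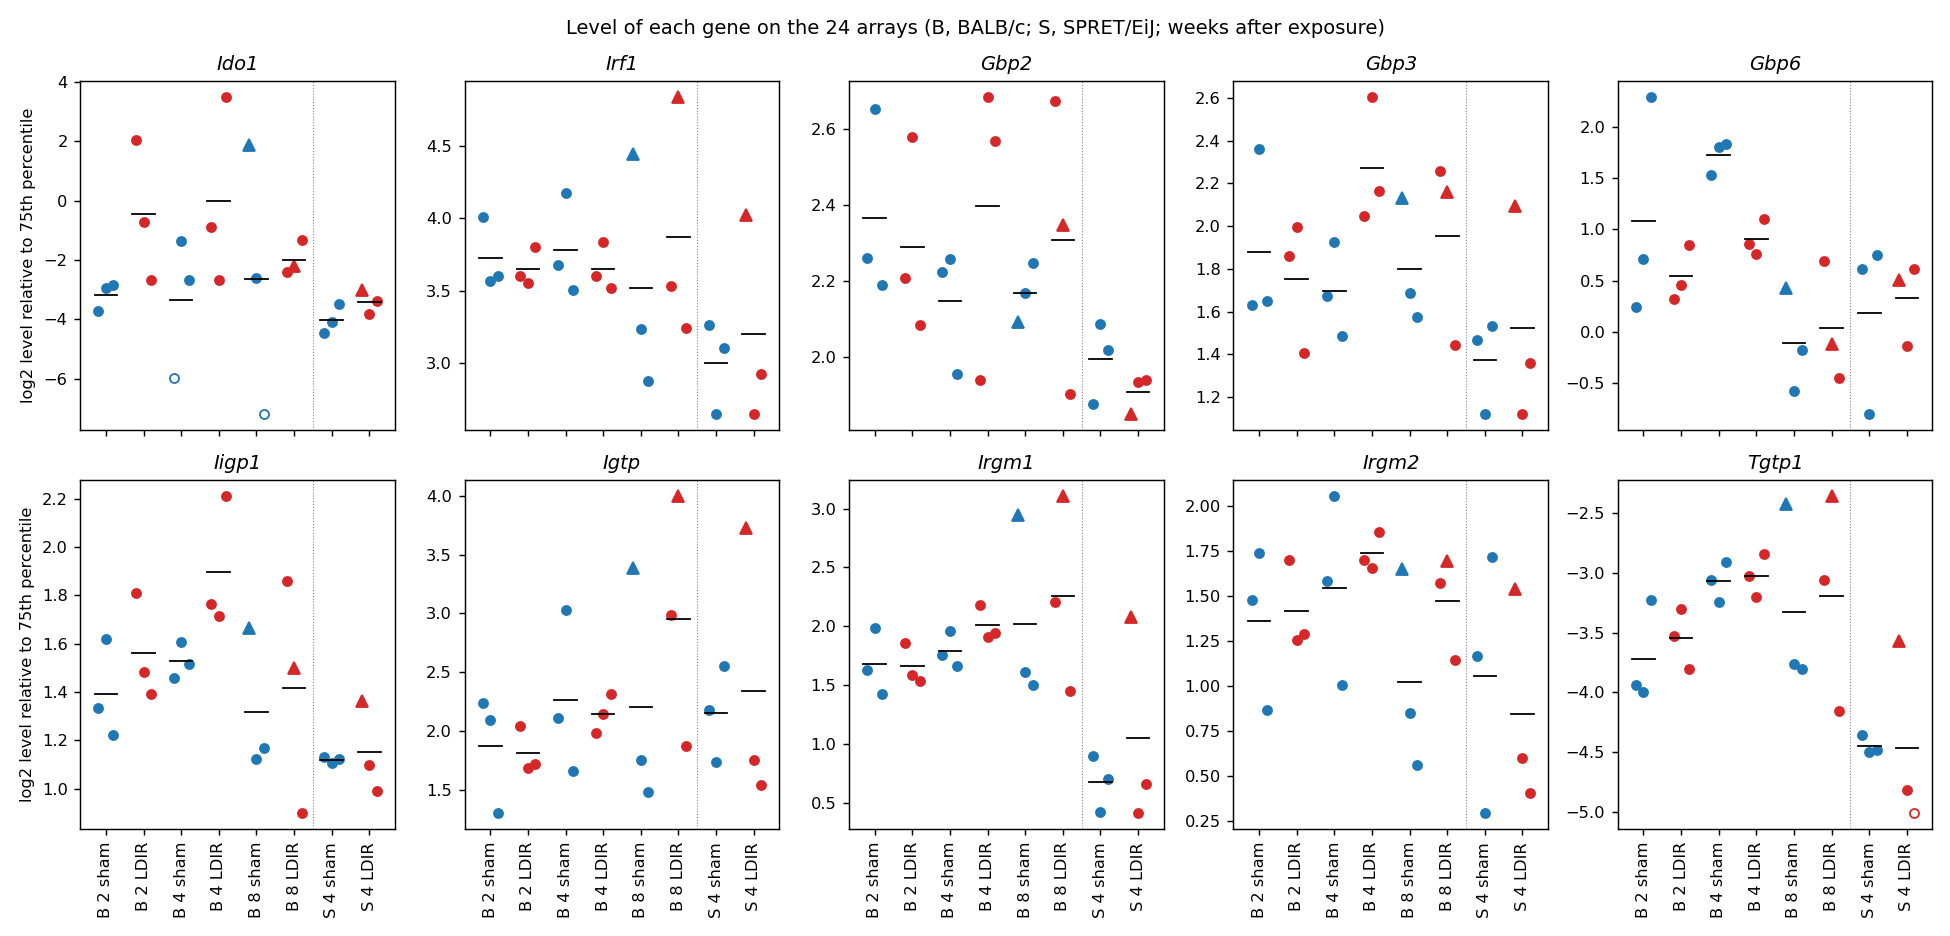
Log2 level of each member (brightest probe, relative to the 75th percentile of the array) on 24 arrays in 8 groups of 3; blue marks sham, red LDIR, triangles the 3 arrays rich in lymphocyte genes, open symbols a signal not well above background, and lines the group means. Ido1 spans 10.69 log2 units and has its 2 open symbols among the sham groups, while Gbp2 stays between 1.85 and 2.68.

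**Figure D2:**
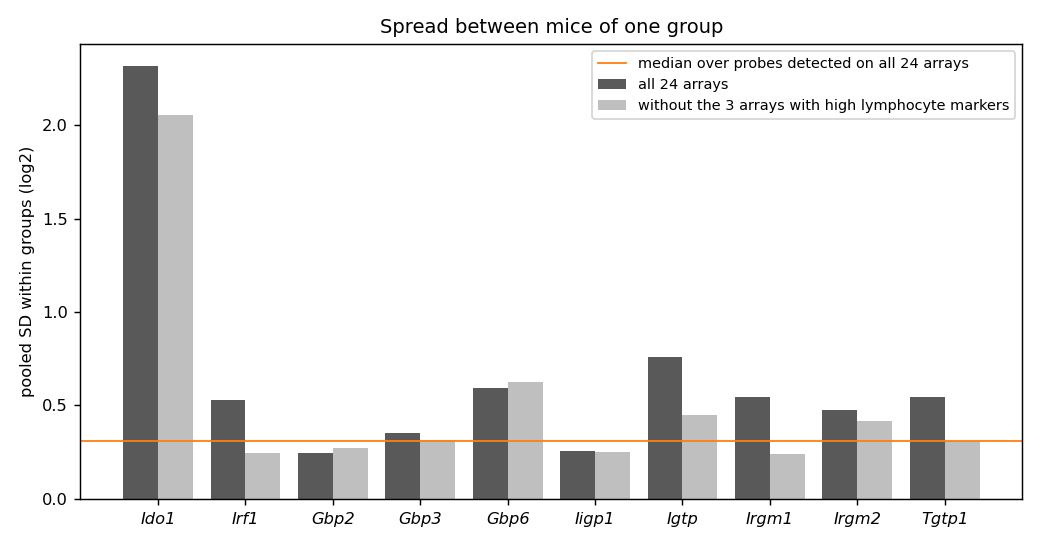
SD between arrays of 1 group, pooled over 8 groups (log2 units), for each member with all 24 arrays and without the 3 rich in lymphocyte genes; the line is the median, 0.31, over 29318 probes detected on all arrays. Ido1 stands at 2.32 and 2.06, and the bars of Irf1, Igtp, Irgm1 and Tgtp1 shorten without those arrays.

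By group mean, Ido1 stood highest in BALB/c at 4 weeks after LDIR (-0.03 ± 3.18, SD, n = 3), followed by 2 weeks after LDIR (-0.46 ± 2.37), 8 weeks after LDIR (-1.99 ± 0.58), and the sham groups at 8 weeks (-2.64 ± 4.54), 2 weeks (-3.18 ± 0.48) and 4 weeks (-3.34 ± 2.38). SPRET/EiJ after LDIR (-3.41 ± 0.41) and after sham (-4.01 ± 0.49) came last. Each neighbouring pair in this order overlapped in its array values. All 3 LDIR group means of BALB/c lay above those of the sham groups, but nothing is concluded from this order, since the 2-week groups chose the gene. The 4-week sham mean holds sham A, at -5.99 and not well above background, so its place in the order is not fixed. At 8 weeks the order rests on sham C, at -7.20 and not well above background, and without that array the LDIR minus sham difference was -1.63.

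At 2 weeks, the time point that chose the members, Ido1 differed by 2.72 (SE 1.12) between LDIR and sham. The 3 LDIR levels all lay above the 3 sham levels, as for 11.6% of all probes in either direction, but LDIR C, at -2.69, was close to the highest sham array. With 1 array left out the difference ran from 1.47, without LDIR A, to 3.83, without LDIR C. The other 9 members differed by -0.55 (Gbp6) to 0.18 (Tgtp1) in brightest probes. Of all probes on the array, 3.13% passed the thresholds used for LDIR, an unadjusted p below 0.05 and a difference above 1.5-fold, in this comparison, and nothing about the members is read from that share. The Gbp6 difference rested on sham C, at 2.30 against 0.24 and 0.71 on the other sham arrays and 0.32, 0.45 and 0.85 after LDIR.

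At 4 weeks in BALB/c, comparing LDIR with sham outside the contrast that chose the genes, the brightest probe of Gbp6 was lower past the thresholds. No member was higher past them in its brightest probe, while the second probes of Iigp1 and Irgm1 were. Gbp6, a guanylate-binding protein, stood at 1.53, 1.81 and 1.84 on the sham arrays and at 0.86, 0.76 and 1.1 on the LDIR arrays, with no overlap. The difference was -0.82 (SE 0.18), a 1.76-fold lower level past the thresholds, with a limma adjusted p = 0.685. The call was lost when all 24 arrays were fitted together (-0.82, SE 0.46) and when the slide was added as a block (-0.93, SE 0.66, adjusted p = 1). The second probe of Gbp6 did not show it: levels of -0.13, 0.36 and -0.90 after sham and -0.37, -0.07 and -0.29 after LDIR gave a difference of -0.02 (adjusted p = 0.988). Thus 1 of 10 members passed the thresholds in its brightest probe, beside 4.78% of all probes (1.42% lower and 3.37% higher). No probe on the array had an adjusted p below 0.05 (smallest 0.331), and 3392 had an unadjusted p below 0.05.

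Ido1 at 4 weeks differed by 3.31 (SE 1.81, adjusted p = 0.783), and the groups overlapped. LDIR C, at 3.49, was the highest of all 24 arrays, and sham A, at -5.99, was not well above background, so that the size of the difference is not fixed. The difference was 1.56 without LDIR C, 1.99 without sham A and 4.64 without LDIR B, the last past the thresholds. Gbp3 stood at 1.67, 1.93 and 1.49 after sham and at 2.05, 2.60 and 2.16 after LDIR, a difference of 0.58 (SE 0.22, adjusted p = 0.783) that met the threshold on p and, at 1.491-fold, fell just under the threshold on fold. Its groups did not overlap, and it passed both thresholds without sham B or without LDIR A, at 0.69 each.

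Among the immunity-related GTPases at 4 weeks, the brightest probe of Iigp1, an effector GTPase, read 1.46, 1.61 and 1.52 after sham and 1.76, 1.71 and 2.21 after LDIR, without overlap (0.37, SE 0.19, adjusted p = 0.783). Its second probe read -1.13, -1.04 and -1.35 after sham and -0.26, -0.67 and 0.30 after LDIR, a difference of 0.96 (SE 0.27, adjusted p = 0.747). For Irgm1 the brightest probe gave 0.22 (SE 0.17, adjusted p = 0.783), while the second went from -0.80, -1.48 and -1.22 to -0.44, -0.62 and -0.24, a difference of 0.73 (SE 0.23, adjusted p = 0.782). That value missed a threshold without sham B (0.575) and without LDIR C (0.64). Both second probes passed the thresholds where the brightest probes of the same genes did not. Irgm2 (0.19), Tgtp1 (0.05), Igtp (-0.12), Irf1 (-0.13) and Gbp2 (0.25) overlapped between the groups.

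In all, brightest probes of 2 members lay higher without overlap and 1 lower, beside 12.2% of all probes without overlap in either direction. The median difference over the 10 members was 0.20, against 0.02 over all probes. The sham arrays A and B were on another slide than the rest of this comparison, and sham C shared a slide with all 3 LDIR arrays. Against sham C alone, Ido1 differed by 2.64, Gbp3 by 0.79, Gbp6 by -0.93 with 0.65 at its second probe, and Irgm2 by 0.73. When the 24 arrays were fitted with a slide term, the Ido1 difference of 2.64 had an SE of 2.63 (adjusted p = 1).

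At 8 weeks in BALB/c no member passed the thresholds, beside 1.8% of all probes. Ido1 differed by 0.65 (SE 2.18, adjusted p = 1), with sham arrays at 1.89 and -7.20 on either side of all 3 LDIR arrays. Leaving out 1 array in turn moved the Ido1 difference from -1.63, without sham C, to 2.92, without sham A. Ido1 was not well above background on sham C, so that the size is not fixed. Igtp stood at 3.39, 1.75 and 1.48 after sham and 2.99, 4.00 and 1.87 after LDIR (0.75, SE 0.73), and Irgm2 at 1.65, 0.85 and 0.56 against 1.57, 1.69 and 1.15 (0.45, SE 0.36). The remaining members differed by 0.10 to 0.35. The median over members was 0.20, against -0.14 over all probes, and no member's groups were free of overlap, beside 4.84% of all probes. The median of all probes became 0.01 after quantile normalization, where the member median was 0.25. No probe had an adjusted p below 0.05 (smallest 1), and 1033 had an unadjusted p below 0.05.

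Each 8-week group holds 1 array rich in lymphocyte genes, so the comparison was repeated without both. Ido1 then differed by 3.03, Igtp by 0.81, Irgm2 by 0.65 and Gbp6 by 0.50, and none passed the thresholds. The size of the Ido1 value is not fixed, since sham C, 1 of the 2 sham arrays left, was not well above background. Without sham A alone, Irgm2 passed them with 0.76. The 8-week LDIR B and C arrays were on the slide of the SPRET/EiJ arrays and the other 4 were together on another, so slide and group overlap in part here as well.

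In SPRET/EiJ at 4 weeks, with all 6 arrays on 1 slide, no brightest probe of a member passed the thresholds, beside 2.2% of all probes. Ido1 differed by 0.60 (SE 0.35, adjusted p = 0.972) and the other members by -0.21 to 0.38, with overlap throughout, while 5.85% of all probes had none. LDIR A stood above the other LDIR arrays in several members: Igtp read 2.18, 1.73 and 2.55 after sham and 3.72, 1.76 and 1.54 after LDIR, and Irgm1 read 0.90, 0.42 and 0.70 against 2.08, 0.41 and 0.66. Without LDIR A the differences were 0.40 for Ido1, -0.50 for Igtp, -0.56 for Irgm2, -0.47 for Tgtp1 (with LDIR C not well above background), -0.14 for Irgm1 and -0.22 for Irf1. The list of 11 T lymphocyte genes had a median difference of 2.12 in the same comparison with all arrays, and its part in the members' values was not tested. No probe had an adjusted p below 0.05 (smallest 0.972), and 1231 had an unadjusted p below 0.05.

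**Figure D3:**
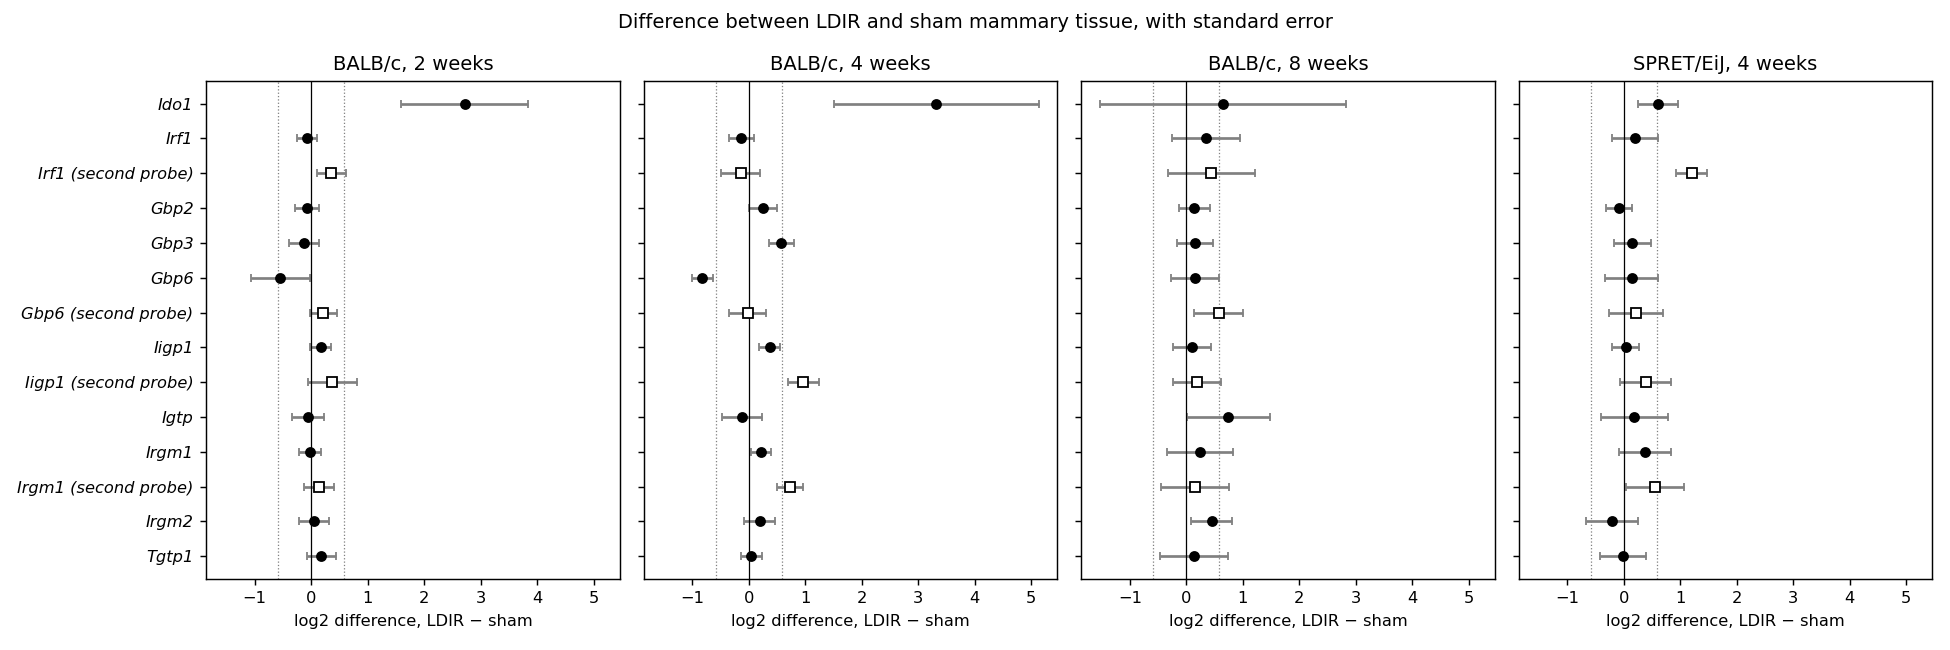
LDIR minus sham difference (log2, bars ± SE) for the 14 member probes in 4 comparisons of 3 against 3 arrays; filled symbols are brightest probes, open squares second probes, and dotted lines 1.5-fold. Ido1 has the widest bars in BALB/c, from 0.65 to 3.31, and the Gbp6 probes part at 4 weeks, -0.82 and -0.02.

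The effects were then compared with each other. At 4 weeks the LDIR difference of Ido1 was larger in BALB/c than in SPRET/EiJ by 2.71 (SE 1.98, adjusted p = 0.957), which did not pass the test, and without BALB/c LDIR B it was 4.04 and passed the thresholds. Without BALB/c LDIR C the Ido1 value was 0.95, without BALB/c sham A 1.39, and without SPRET/EiJ LDIR A, the array rich in lymphocyte genes, 2.91 (adjusted p = 0.906). On BALB/c sham A Ido1 was not well above background, so that the size of the values that use it is not fixed. For Gbp6 the interaction was -0.96 (SE 0.53, adjusted p = 0.957), and -1.24, past the thresholds, without SPRET/EiJ sham C, while without SPRET/EiJ LDIR A it was -0.87 (adjusted p = 0.906). Between 4 and 8 weeks in BALB/c, the LDIR differences of Ido1 differed by 2.66 (SE 3.10, adjusted p = 0.987) and by 0.28 (SE 2.92, adjusted p = 0.986) without the arrays rich in lymphocyte genes. Both values rest on 4-week sham A and 8-week sham C, where Ido1 was not well above background, so that their size is not fixed. With 1 array left out the Ido1 value ran from 0.40, without 8-week sham A, to 4.94, without 8-week sham C, and it was 0.90 without 4-week LDIR C and 1.34 without 4-week sham A. Those of Gbp6 differed by -0.97 (SE 0.47, adjusted p = 0.987), and by -1.32, past the thresholds, without the arrays rich in lymphocyte genes. In all arrays, 0 of 10 members passed the thresholds in their brightest probes in either interaction, beside 3.53% and 4.19% of all probes, and no probe had an adjusted p below 0.05 (smallest 0.378 and 0.171).

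Between the strains, sham tissue at 4 weeks differed past the thresholds in the brightest probes of Tgtp1 and Irgm1, both higher in BALB/c. Tgtp1, an effector GTPase, stood at -3.06, -3.24 and -2.90 in BALB/c and at -4.36, -4.50 and -4.48 in SPRET/EiJ, a difference of 1.38 (SE 0.17, adjusted p = 0.00297). Irgm1, the regulatory GTPase that protects the membranes of the cell, stood at 1.75, 1.96 and 1.66 against 0.90, 0.42 and 0.70, a difference of 1.12 (SE 0.19, adjusted p = 0.0111). In brightest probes these were 2 of 10 members past the strain thresholds, p below 0.001 and above 1.5-fold, beside 8.85% of all probes. Irgm1 lay so near the threshold that leaving out any 1 of the 6 arrays, each in turn, ended its call, with differences of 0.99 to 1.23. Tgtp1 stayed past it in each of these 6 fits, but its call was lost with normexp background correction (0.43), in the fit of all 24 arrays (SE 0.43), with the slide as a block (1.35, SE 0.93, adjusted p = 0.575) and with the replicate letter as a block. The second probe of Irgm1 gave 0.59. A near-identical gene, Tgtp2, may bind the Tgtp1 probe, so its values may hold both.

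The second probe of Iigp1 differed by 2.47 (SE 0.39, adjusted p = 0.00784), from -1.13, -1.04 and -1.35 in BALB/c to -3.03, -4.51 and -3.40 in SPRET/EiJ, and missed the strain threshold without any 1 of 4 arrays (BALB/c sham A, B or C, or SPRET/EiJ sham C), at 2.40 to 2.59, and with the slide as a block (1.28). Its brightest probe differed by 0.41 (SE 0.15, adjusted p = 0.112). Gbp6 differed by 1.54 (SE 0.43, adjusted p = 0.054), with 0.67 at its second probe (adjusted p = 0.382), and Irf1 by 0.78 (SE 0.26, adjusted p = 0.0911). Irf1's second probe was not well above background on any of the 6 arrays, so its difference, although past the thresholds, is not given as a size. Irgm2 (0.49), Gbp3 (0.32), Gbp2 (0.15) and Igtp (0.11) differed less, and Ido1 by 0.68 (SE 1.13, adjusted p = 0.724), a value that ran from -0.31 without BALB/c sham B to 2.00 without BALB/c sham A, which was not well above background, so that its size is not fixed. Brightest probes of 5 members lay higher in BALB/c without overlap and none lower, beside 36.8% of all probes in either direction. The median over members was 0.58, against -0.06 over all probes.

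Limits on this comparison come from its layout. The SPRET/EiJ arrays were all on 1 slide and the BALB/c sham arrays on the other 2, so within these 6 arrays strain and slide cannot be told apart. The strains share a slide only through BALB/c 8-week LDIR B and C, and the fit of all 24 arrays with the slide as a block, which leans on them, put 0 of 10 members past the thresholds with a median of 0.23. Over all probes the median in that fit was 0.126, and 1467 of 55681 probes passed, against 4929 in the main fit. The probes were designed on the reference genome, so a sequence difference under a SPRET/EiJ probe and a lower level cannot be told apart either. The list of 13 mammary epithelium genes had a median difference of 1.41, with 1 of 13 genes past the thresholds, and its part in the members' differences was not tested.

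After LDIR the strain comparison gave 0 of 10 members past the thresholds in their brightest probes, beside 5.67% of all probes. The BALB/c LDIR arrays shared a slide and the SPRET/EiJ arrays another, so strain and slide cannot be told apart here either. The same holds for a sequence difference under a SPRET/EiJ probe and a lower level. Ido1 was 3.39 higher in BALB/c (SE 1.44, adjusted p = 0.206) and its strain groups did not overlap, with -2.68 as the lowest BALB/c level and -3.01 as the highest SPRET/EiJ level. The Ido1 difference ran from 1.63 without BALB/c LDIR C to 4.72 without BALB/c LDIR B. The second probe of Iigp1 differed by 3.05 (SE 0.36, adjusted p = 0.00414) and passed the thresholds. Over 12 alternatives that difference ran from 2.02 to 3.32, and the result did not stay the same in 2 of them. Tgtp1 differed by 1.44 (SE 0.41, adjusted p = 0.0744), but on SPRET/EiJ LDIR C it was not well above background, so that the size is not fixed. The median over members was 0.75, against -0.05 over all probes, and brightest probes of 6 members lay higher in BALB/c without overlap, beside 33.2% of all probes in either direction. Without SPRET/EiJ LDIR A, the array rich in lymphocyte genes, 3 members passed: Tgtp1 by 1.90 (adjusted p = 0.00515), Irgm1 by 1.48 (adjusted p = 0.00897) and Irgm2 by 1.24 (adjusted p = 0.0112). In that fit 4364 of 55680 probes passed the thresholds, against 3158 of 55680 with all arrays. The Tgtp1 value then rests on LDIR B and on LDIR C, where it was not well above background. Without LDIR A, Ido1 differed by 3.59 (adjusted p = 0.238) and the second probe of Iigp1 by 3.32 (adjusted p = 0.00416).

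**Figure D4:**
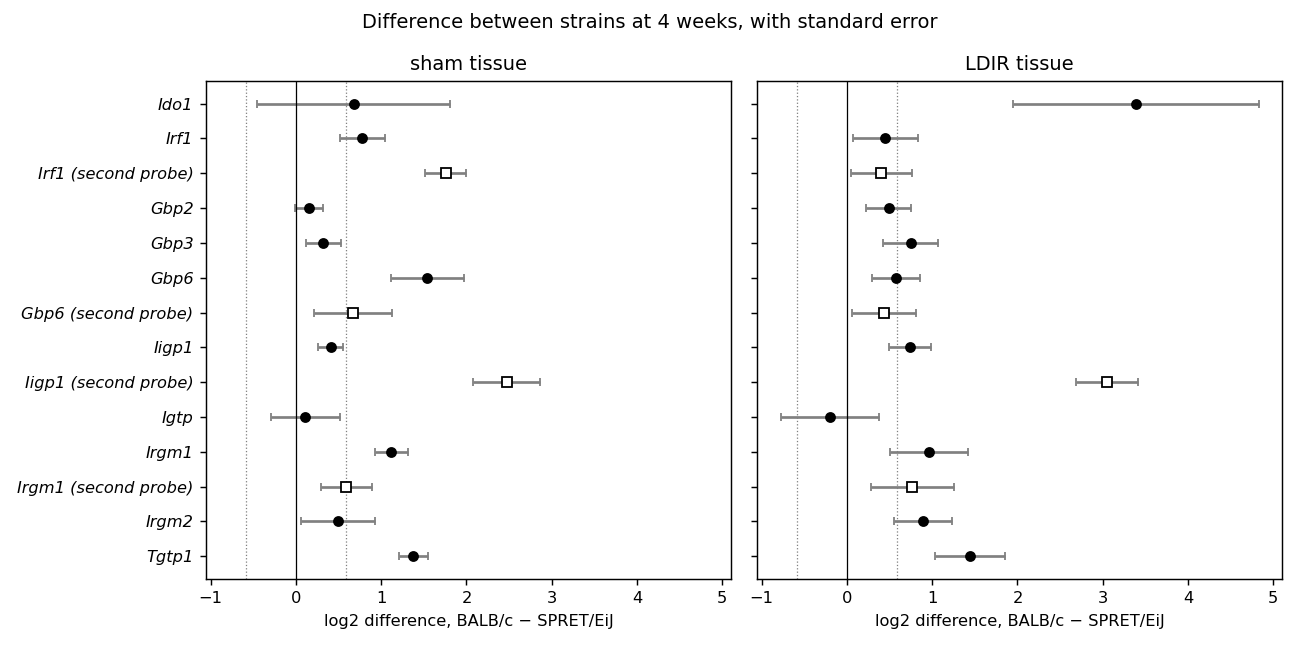
BALB/c minus SPRET/EiJ difference (log2, bars ± SE) for the 14 member probes in sham and in LDIR tissue at 4 weeks, 3 against 3 arrays; filled symbols are brightest probes, open squares second probes, and dotted lines 1.5-fold. Tgtp1 lies at 1.38 and 1.44 and the second probe of Iigp1 at 2.47 and 3.05.

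The arrays rich in lymphocyte genes also carried more of some members and not of others. Against the mean of the other 2 arrays of its group, Igtp was 1.77, 1.57 and 2.08 higher on BALB/c 8-week sham A, BALB/c 8-week LDIR B and SPRET/EiJ LDIR A. In the same order Irf1 was 1.39, 1.45 and 1.23 higher and Irgm1 1.39, 1.28 and 1.55 higher, and Tgtp1 was higher by 1.25 to 1.36, where SPRET/EiJ LDIR C, in the mean for the last of these arrays, was not well above background. Irgm2 was higher by 0.94, 0.33 and 1.04. The share of all probes that were higher on these arrays is not given, so nothing particular to the members is read from these values. Gbp2 differed by -0.12, 0.06 and -0.09, Gbp6 by 0.81, -0.24 and 0.27, and Ido1 by -0.34 on BALB/c 8-week LDIR B and 0.60 on SPRET/EiJ LDIR A. No size is given for Ido1 on 8-week sham A, because 1 of the other 2 arrays of its group, sham C, was not well above background.

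Across the 18 BALB/c arrays, each gene's deviations from its group means were set beside those of the others, which takes out the differences between groups. The 28 pairs of GTPases had a median Pearson r of 0.56, from -0.10 to 0.91, with Igtp and Irgm1 at the top (0.908). Irf1 followed the GTPases with a median r of 0.55 and reached 0.897 with Igtp, whereas Ido1 had a median of 0.42. On the 16 BALB/c arrays that are not rich in lymphocyte genes the medians were 0.52 for GTPase pairs, 0.20 for Irf1 and 0.15 for Ido1. These are descriptions over arrays that share groups, slides and tissue makeup. Ido1 was not well above background on 4-week sham A and 8-week sham C, where it deviated by -2.65 and -4.56 over the 18 arrays. Every r of Ido1, here and below, uses 4-week sham A, 8-week sham C or both, so its size is not fixed.

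Ido1 was tested against each of the other 9 members over the 18 arrays, and 0 of the 9 relations had an adjusted permutation p below 0.05. The 18 arrays include the 2-week arrays on which the members were chosen, and no version without them is given. Among those arrays Ido1 deviated by 2.50 on LDIR A and by -2.23 on LDIR C, so nothing is concluded from these p-values. The closest relations were with Irgm2 (r = 0.529, p = 0.0971, adjusted p = 0.401; rho = 0.364, p = 0.23) and Iigp1 (r = 0.518, p = 0.0384, adjusted p = 0.346; rho = 0.49, p = 0.0836). With the 2 arrays farthest in Ido1 left out, r fell to 0.237 for Irgm2 and to 0.414 for Iigp1. With Irf1, the transcription factor named above as an early target, Ido1 had r = 0.354 (p = 0.392) and rho = 0.065 (p = 0.835). The r of Ido1 with the mean of the 8 GTPases was 0.48 over 18 arrays and 0.22 over 16. Within slides it was 0.74 and 0.70 over 8 arrays each, and the slide with 2 BALB/c arrays gave none. The slide with 0.70 holds 8-week sham A, rich in lymphocyte genes, which deviated by 4.53 in Ido1 and 0.60 in the GTPase mean. No value without that array is given.

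**Figure D5:**
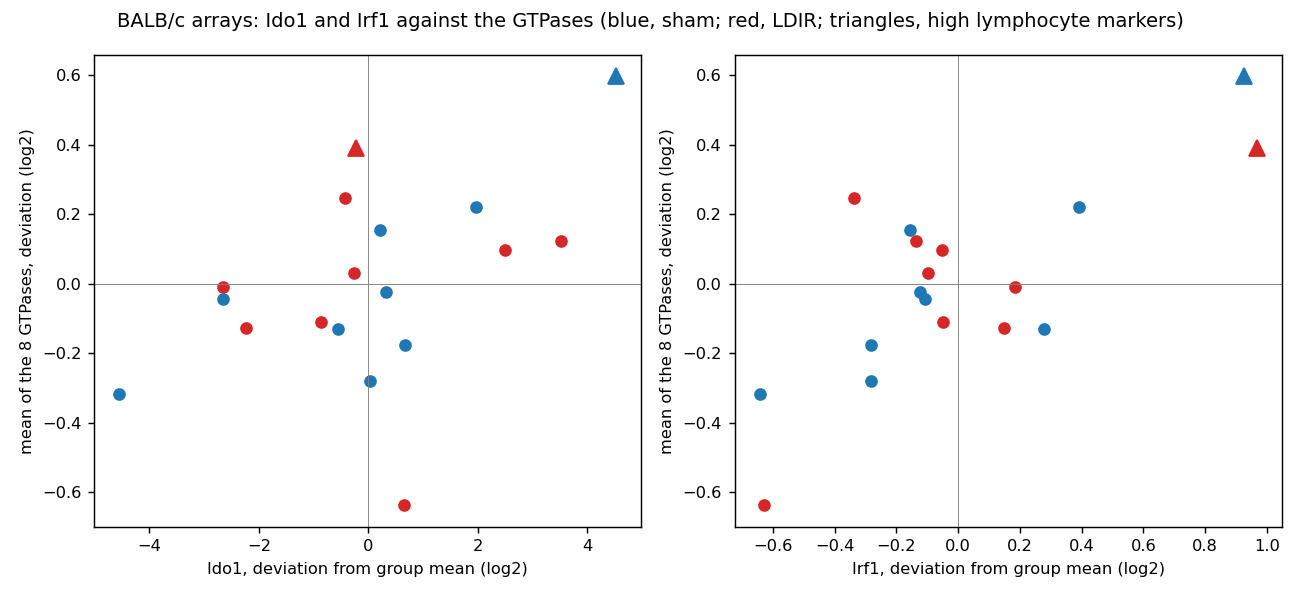
Deviation from the group mean (log2) of Ido1 and of Irf1 (horizontal axes) and of the mean of 8 GTPases (vertical axis), 1 point for each of 18 BALB/c arrays, triangles marking the arrays rich in lymphocyte genes. Irf1 follows the GTPase mean with r = 0.76, or 0.32 without those arrays, and Ido1 with r = 0.48, or 0.22. Both values of Ido1 use 4-week sham A and 8-week sham C, where it was not well above background.

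Of the marker lists, most immune and interferon lists moved with the GTPase mean in the same deviations and tissue lists against it. Its r with 14 other interferon-inducible GTPases was 0.932, with other interferon-gamma targets 0.915, with natural killer cell genes 0.876, with dendritic cell genes 0.824, with T lymphocyte genes 0.751, with B lymphocyte genes 0.738 and with macrophage genes -0.059. Without the arrays rich in lymphocyte genes the values were 0.919, 0.836, 0.761, 0.657, 0.21, 0.033 and 0.305. Mammary epithelium genes had r = -0.598, mammary hormone response genes -0.563 and white adipocyte genes -0.488, which became -0.143, -0.492 and 0.298 without those arrays. Ido1 had r = 0.649 with type I interferon-stimulated genes and 0.461 with T lymphocyte genes, and 0.49 and 0.651 without those arrays, but 0.424 and 0.055 without the 2 arrays farthest in Ido1. Without the arrays rich in lymphocyte genes its r was 0.566 with dendritic cell genes and 0.555 with mammary epithelium genes, against 0.506 and 0.018 over all 18 and 0.111 and 0.443 without the 2 arrays farthest in Ido1. Among 25545 genes detected on at least 12 arrays, those most like Ido1 were Tmem22 (r = 0.885), Bcl2l14 (0.87), Casp14 (0.866), Dkkl1 (0.863) and Fam83e (0.861). Of these, Bcl2l14 and Dkkl1 were among the 5 nearest without the arrays rich in lymphocyte genes. Both rankings for Ido1 use 4-week sham A and 8-week sham C, where Ido1 was not well above background, so these r values are not fixed in size. Those most like the GTPase mean were Tnfsf15 (0.933), H2-T24 (0.916), Klrg1 (0.914) and Tgtp2 (0.912), and of these Tnfsf15 and Tgtp2 were among the 5 nearest without those arrays.

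The rest of the pathway was read from lists. At 4 weeks in BALB/c, none of 14 other interferon-gamma targets passed the thresholds and their median LDIR difference was -0.12. Among 14 interferon-gamma signalling genes 2 were lower, Ifng, the cytokine itself (-1.14), and Socs3, an inhibitor of cytokine signalling (-0.64), with a list median of -0.02. Each of these 2 calls was lost without any 1 of 4 arrays, at -1.16 to -0.83 for Ifng and -0.66 to -0.50 for Socs3. Of 14 other interferon-inducible GTPases, 2 were higher, Ifi47 (0.80, adjusted p = 0.689) and Gm4951 (0.66, adjusted p = 0.783), with a median of 0.20, and Gm4951 was lost without any 1 of 4 arrays (0.46 to 0.67). None of 11 tryptophan and kynurenine pathway genes passed (median 0.25). Of all probes 1.42% passed as lower and 3.37% as higher in this comparison.

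Of 12 type I interferon-stimulated genes, 9 were higher past the thresholds before adjustment in the same comparison, beside 3.37% of all probes, with a median of 0.96. Among them were Oasl2 (1.27), Oas1a (1.23) and Ifi44 (1.19), sensors and effectors of the antiviral response. Ifi44 did not stay the same in 2 of 11 alternatives, while Oasl2 and Oas1a did in each. As above, sham A and B were on another slide than the LDIR arrays. Macrophage genes moved with them, 7 of 10 higher with a median of 0.79, and the summed macrophage signal was 71.24 to 100.8 multiples of the 75th percentile after LDIR against 40.58 to 60.65 after sham. With 1 array left out in turn, the macrophage gene C1qa ran from 0.731 to 1.335, and its call did not stay the same in 3 of 6 fits. No gene of these lists had an adjusted p below 0.05. The part of macrophage genes in the values of Ido1, Gbp3, Iigp1 and Irgm1 was not tested.

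At 8 weeks 1 of 14 other interferon-inducible GTPases was higher, Gbp11 (0.64, adjusted p = 1), a call lost without any 1 of 5 arrays (0.54 to 0.67), and none of the interferon-gamma signalling, target or kynurenine genes passed, beside 1.8% of all probes. In SPRET/EiJ none of these 4 lists had a gene past the thresholds. Between strains in sham tissue, 5 of 14 other interferon-inducible GTPases were higher in BALB/c with a median of 1.07, among them Gbp1 (4.11, adjusted p = 0.000333). Of 14 signalling genes 2 were higher, Ciita (1.88) and Nlrc5 (1.55), which turn on the genes of antigen presentation. Over 11 alternatives Ciita ran from 0.77 to 2.58 and did not stay the same in 2, Nlrc5 did not in 3, and Gbp1 stayed the same in each. Strain cannot be told apart from slide or from sequence under a SPRET/EiJ probe in these lists either. After LDIR 2 of the 14 GTPases passed, Gbp1 (4.47) and F830016B08Rik (4.74). The latter was well above background on 1 of 3 SPRET/EiJ arrays, so that the size of its difference is not fixed. Beside these counts stand 8.85% of all probes past the strain thresholds in sham tissue and 5.67% after LDIR. In sham tissue, of 11 tryptophan and kynurenine pathway genes 1 was higher and 1 lower, with a median of -0.13, and the probe of the lower, Kynu, was not well above background on any of the 6 arrays. Kmo, the kynurenine enzyme that acts downstream of Ido1, was 1.27 higher in BALB/c sham tissue, a call lost without any 1 of 4 arrays (1.21 to 1.29).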

How the data were processed

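Total RNA of whole mammary glands was labelled in 1 colour and hybridised to Agilent SurePrint G3 mouse arrays on 3 slides, 24 arrays in 8 groups of 3. Per the labels, the scanner files come from Feature Extraction 10.10.1.1, and the values used here are its background-subtracted processed signal, a linear intensity as deposited. The authors also deposited log2 values scaled to the 75th percentile in GeneSpring. After each probe was centred and each array's median offset was removed, 99.815% of those lay within 0.01 of the log2 values computed here. That share therefore says nothing about the scaling of the arrays. The median strain difference over all probes in sham tissue was -0.079 with the authors' values and -0.063 here. The authors' values served as an alternative.

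From the intensity, log2 levels were computed for the 59305 spots of each array that are not controls, minus the array's 75th percentile. Over the 24 arrays together, 3777 outlier spot readings were left out, and spots of a probe were averaged to 55681 probes. No spot was saturated. Differences were tested with limma 3.58.1 (lmFit and eBayes) in R 4.3.3 over all probes, on the 6 arrays of a comparison or the 12 of an interaction, with Benjamini-Hochberg adjustment over all probes. The thresholds for LDIR and for interactions were p below 0.05 and above 1.5-fold, and for strain p below 0.001 and above 1.5-fold. Correlations used Python 3.11.15 with scipy 1.17.1 and 100000 permutations of the arrays. The fits were tested on simulated data. The number of arrays limits the precision, and 3 arrays against 3 cannot give an exact permutation p below 0.1.

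A gene is represented by its brightest probe, with the other probe beside it. The 10 members and all lists were chosen with earlier results of these data known. Named list genes were chosen among those past the thresholds after their values were seen. The scaling was settled among 3 versions of the 75th percentile after their results were seen, and the other 2 versions are alternatives. Leaving out the 3 arrays whose T lymphocyte genes had a mean log2 level above 0 was also chosen after seeing the data. A first version of the relation between Ido1 and the GTPases tested r with their mean and was dropped for the 9 single relations. Other alternatives were normexp, quantile normalization, detected probes only, the mean of all probes of a gene, a fit of all 24 arrays, the slide as a block, the replicate letter as a block, the methods' t-test and each array left out in turn. The study gives the arrays of a group as biological replicates.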

Additional observations from a re-analysis of the deposited data

Results flagged for a closer look

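The second probe of Irf1 differed between the strains in its LDIR effect at 4 weeks, by -1.35 (SE 0.45, limma adjusted p = 0.957), a value past the thresholds before adjustment. The probe was well above background on 1 of the 12 arrays of this comparison, so the value is a difference between readings at background and is not a size of effect. In SPRET/EiJ it read -7.23, -7.50 and -7.63 after sham and -6.59, -5.96 and -6.19 after LDIR. After normexp background correction the SPRET/EiJ difference was -0.02, and the brightest probe of Irf1 differed by 0.19 (adjusted p = 0.972).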

How the results depend on the processing

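The BALB/c 4-week count of members past the thresholds, 1, was 2 with normexp and with quantile normalization, which added Gbp3, and 0 in the 24-array fit and with the slide as a block, where the median over members was 0.41 with the slide block, against -0.057 over all probes. Of 55680 probes, 2664 passed in the main fit, 612 with normexp, 2482 with quantile normalization, 1750 in the 24-array fit and 670 with the slide block. The strain count in sham tissue, 2, was 1 with the percentile over probe averages, the authors' log2 values and the methods' t-test, which kept Tgtp1, and 1 with normexp, which kept Irgm1, where Tgtp1 had 0.43. It was 0 in the 24-array fit and with the slide block, which gave a median of 0.23, against 0.126 over all probes. Of 55681 probes, 4929 passed in the main fit, 4950 with the percentile over probe averages and 4944 with the authors' log2 values. The number was 2752 with the methods' t-test, 5640 with normexp, 6890 in the 24-array fit and 1467 with the slide block. In LDIR tissue the strain count, 0, was 1 with the mean of all probes (Iigp1) and 3 without the arrays rich in lymphocyte genes. Beside these counts, 3158 of 55680 probes passed in the main fit and 4364 of 55680 without those arrays. With the mean of all probes 2000 of 34796 gene names passed. The SPRET/EiJ count, 0, was 1 with the mean of all probes (Irf1), where 595 of 34797 gene names passed, against 1225 of 55681 probes in the main fit. The strain interaction count, 0, was 1 with normexp (Gbp6) and with the mean of all probes (Irf1), and the count for 4 against 8 weeks, 0, was 1 with normexp and without the arrays rich in lymphocyte genes (Gbp6). In the strain interaction 706 of 55680 probes passed with normexp, against 1965, and 1139 of 34796 gene names with the mean of all probes. For 4 against 8 weeks 690 of 55680 probes passed with normexp and 3296 without those arrays, against 2335. The cause of these changes in the counts was not tested. With 1 array left out in turn, the counts ran from 1 to 2 at 4 weeks (2 without sham B, LDIR A or LDIR B), 0 to 1 at 8 weeks (1 without sham A), 1 to 1 between strains in sham tissue, 0 to 3 in LDIR tissue (3 without SPRET/EiJ LDIR A), 0 to 1 in the strain interaction (1 without BALB/c LDIR B or SPRET/EiJ sham C) and 0 to 1 for 4 against 8 weeks (1, Gbp6, without 8-week sham A or LDIR C). Beside these counts, in the order of the arrays named, 2208, 3132 and 2678 probes passed at 4 weeks and 1493 at 8 weeks. Between strains they were 3189 to 3721 in sham tissue and 4364 in LDIR tissue. They were 1561 and 1892 in the strain interaction, and 2729 and 1591 for 4 against 8 weeks. The medians over members ran from 0.037 (without sham C) to 0.646 (without sham A) at 8 weeks, 0.30 (without BALB/c sham B) to 0.82 between strains in sham tissue and -0.51 (without 8-week sham A) to 0.22 for 4 against 8 weeks. Among called results and Ido1, reversed were Ido1 at 8 weeks with normexp (-0.40), Ido1 at 8 weeks with 1 array left out (-1.63 without sham C, up to 2.92), Ido1 between strains in sham tissue with 1 array left out (-0.31 without BALB/c sham B, up to 2.00) and the second probe of Irf1 in SPRET/EiJ with normexp (-0.019). In SPRET/EiJ, where no brightest probe was called, those of Igtp, Irgm1, Irf1, Gbp3 and Iigp1 also changed sign without LDIR A, and the median over members ran from -0.14 (without LDIR A) to 0.36 (without LDIR B).

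With the replicate letter as a block, the 4-week count remained 1 and the strain count in sham tissue was 0 in place of 2, and no other count of members changed. The letters deviated together over detected probes in the 2-week groups (0.141, 0.442 and 0.101) but not over all probes (0.013, 0.14 and -0.031). In no other comparison did all 3 letters exceed 0.1. At 8 weeks they gave -0.559, -0.567 and 0.544 over detected probes, where sham A and LDIR B are the arrays rich in lymphocyte genes. The labels do not say what a letter stands for, so these values cannot decide whether arrays of equal letter are paired. The correlation tests of Ido1 do include the 2-week arrays.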
